A study of Homo sapiens with 10 samples.

Results

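The genes described here code for the subunits of the mitochondrial respiratory chain and ATP synthase, in the nucleus and in the mitochondrial genome. They were chosen by gene name alone: names beginning with NDUFA, NDUFB, NDUFC, NDUFS or NDUFV and a digit, SDHA to SDHD, UQCR, CYC1, COX and a digit, ATP5, or the mitochondrial ND, CO, CYB, ATP and RNR genes, with names of numbered pseudogenes left out. The rule found 116 of the 50868 genes of the table, 103 in the nuclear genome and 13 in the mitochondrial genome. By role, 75 of the nuclear members are main subunits of the 5 complexes. The other nuclear members are 9 assembly factors of complex IV, 7 tissue isoforms, COX7A2L and 11 genes placed in no complex. COX7A2L links complexes into larger assemblies. The 11 are 4 genes named as antisense RNAs, 3 copies of subunit genes, 2 readthrough genes and 2 other genes of the name. The 13 mitochondrial members are 11 mRNAs and the 2 ribosomal RNAs. The mitochondrially encoded ATP synthase genes were not analysed here.

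The respiratory chain passes electrons from NADH and succinate through complexes I to IV to oxygen and pumps protons across the inner mitochondrial membrane. ATP synthase uses the resulting gradient to make ATP. Complexes I, III and IV and ATP synthase mix subunits from both genomes, while complex II is wholly nuclear. The mitochondrial genes are transcribed from the circular genome as long precursors that are cut into shorter RNAs. The nuclear genes are classical targets of the factors NRF1, GABP and YY1. Acute myeloid leukemia cells are known for their reliance on mitochondrial respiration.

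RNA was sequenced from Kasumi-1, a human myeloblast leukemia cell line that carries the 8;21 translocation, so every group shares the AML1-ETO fusion. Cells were transduced with a retrovirus carrying HA-tagged E2-2 (from the gene TCF4), HA-tagged E2A (from TCF3), HA-tagged HEB (from TCF12) or, as control, the empty MIGR1 vector, and GFP-positive cells were sorted 4 days after infection. E2-2, E2A and HEB are the E proteins, basic helix-loop-helix transcription factors, and the study asked how their roles differ in this leukemia. The groups are 1 RNA library each, so no difference has a replicate check, and expression was forced rather than native. The ChIP-seq libraries were not analysed here.

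The libraries held 14816708 counted reads for E2-2, 17673090 for E2A, 16791922 for HEB and 15728974 for vector. Each transduced gene was highest in its own library: TCF4 had 12484 reads in E2-2 and 4 in vector, TCF3 had 23186 in E2A and 3934 in vector, and TCF12 had 13842 in HEB and 2568 in vector. Of the markers checked, 10 myeloblast genes such as MPO and KIT summed to 14406 CPM (reads per 1000000 scaled reads) in E2-2, 16794 in E2A and 23166 in HEB, against 19395 in vector. MPO made up most of each sum, at 11254 CPM in E2-2, 13171 in E2A and 18014 in HEB, against 14862 in vector. Other genes of the list ran differently: CD33 stood between 85.7 and 115 CPM in the E2A, HEB and E2-2 libraries, against 28.3 in vector, and CD34 at 166, 149 and 130 CPM in E2-2, E2A and HEB, against 253 in vector. Sums were at most 3.01 CPM for 5 T cell genes, 0.513 for 5 erythroid genes and 0.659 for 5 fibroblast genes in any library. The 5 B cell genes summed to 30.7 CPM in E2-2, 22.4 in E2A and 17.1 in HEB, against 17.1 in vector, and 5 epithelial genes, mostly EPCAM, to 42.9 in E2-2, 49.6 in E2A and 42.7 in HEB, against 57.3 in vector. The part of these markers in the results below was not tested.

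Folds are ratios of CPM with a 95% exact interval in parentheses, which covers counting error only. Genes with fewer than 30 reads summed over both libraries of a comparison were not measured in it. A measured gene was called when its interval excluded 1 and its fold reached either of 2 thresholds, 2-fold or a lower threshold of 0.32 on the log2 scale, in either direction. These calls describe the libraries and are no test between conditions. The 3 comparisons against vector share the vector library, so a low or high vector value enters all of them.

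Promoters are shown for the sequence elements that recur among nuclear members. RefSeq windows (GRCh38.p14, 250 bases before to 50 after the gene start) were matched for 80 of the 103 nuclear members. Motifs were searched as exact letters on both strands. The ETS motif CCGGAAG, which GABP binds, was in 23 of the 80 windows, 28.7%, against 10.7% of all 27305 windows. The YY1 motif AAGATGGCG was in 11, 13.8%, against 1.85% of all windows. These 11 include COX10 with its neighbour COX10-AS1, and NDUFA6 with its neighbour NDUFA6-AS1, whose windows may share letters. The COX10 pair is also among the 23 ETS windows. The NRF1 motif, spelled out by the 10 capitals after the CAGCTG of SDHD, was in 6, 7.5%, against 1.36% of all windows. The E-boxes that E proteins can bind were near their general share: CAGGTG was in 16 member windows (20%, against 20.6% of all) and CAGCTG in 15 (18.8%, against 17.7%). A match is a description of letters and not a binding site.

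4 of these windows are printed 5′ to 3′, with every motif match in capitals. UQCRQ is shown because it was lower than vector in all 3 E protein libraries, ATP5G1 because it had the lowest ATP synthase fold in E2-2 and E2A, and SDHB and SDHD because they were on the higher side in all 3 and hold several of the motifs.
UQCRQ, chr5:132866392-132866691, plus strand: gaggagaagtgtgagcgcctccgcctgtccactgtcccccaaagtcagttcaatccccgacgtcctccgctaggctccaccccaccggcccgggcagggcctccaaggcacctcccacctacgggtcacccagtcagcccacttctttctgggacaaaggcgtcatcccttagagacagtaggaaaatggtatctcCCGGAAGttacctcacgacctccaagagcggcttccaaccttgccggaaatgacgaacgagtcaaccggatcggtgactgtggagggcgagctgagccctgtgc
ATP5G1, chr17:48892537-48892836, plus strand: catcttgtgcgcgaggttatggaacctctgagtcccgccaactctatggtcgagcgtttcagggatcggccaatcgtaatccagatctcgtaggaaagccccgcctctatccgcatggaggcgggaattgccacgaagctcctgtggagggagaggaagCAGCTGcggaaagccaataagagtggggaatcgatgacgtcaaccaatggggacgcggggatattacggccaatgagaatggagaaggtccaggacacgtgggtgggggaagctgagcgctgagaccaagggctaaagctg
SDHB, chr1:17053983-17054282, minus strand: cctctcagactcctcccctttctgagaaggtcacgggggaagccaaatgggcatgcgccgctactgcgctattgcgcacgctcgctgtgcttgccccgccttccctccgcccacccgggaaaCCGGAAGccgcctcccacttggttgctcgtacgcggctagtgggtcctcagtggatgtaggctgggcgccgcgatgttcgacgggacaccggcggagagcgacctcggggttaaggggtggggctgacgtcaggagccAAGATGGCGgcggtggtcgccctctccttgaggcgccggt
SDHD, chr11:112086623-112086922, plus strand: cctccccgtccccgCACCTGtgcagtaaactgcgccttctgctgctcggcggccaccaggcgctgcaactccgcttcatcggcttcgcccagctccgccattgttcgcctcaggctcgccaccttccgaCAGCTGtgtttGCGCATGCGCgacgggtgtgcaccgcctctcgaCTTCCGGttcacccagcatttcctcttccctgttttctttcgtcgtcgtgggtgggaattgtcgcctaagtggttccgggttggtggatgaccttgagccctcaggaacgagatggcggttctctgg
The capitals mark an ETS match in UQCRQ, a CAGCTG E-box in ATP5G1, an ETS and then a YY1 match in SDHB, and in SDHD, in order, a CAGGTG E-box on the reverse strand, a CAGCTG E-box, an NRF1 match and an ETS match on the reverse strand. None of these matches overlaps another.

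Most nuclear members lay close to vector in every E protein library. With E2-2, 0 of 90 measured nuclear members were called higher and 0 lower at 2-fold, where 8.45% and 3.55% of all 13884 measured genes were called. At the lower threshold 3 were called higher and 13 lower, against 20.0% and 19.2% of all genes. The median log2 fold of the nuclear members was -0.15 with E2-2, against -0.03 over all genes. Of the 90, 65 (72.2%) were below vector, against 53.1% of all genes. In bulk RNA, fewer cells of one kind and less RNA per cell cannot be told apart.

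With E2A, 1 of 90 measured nuclear members was called higher at 2-fold and 0 lower, against 4.89% and 1.58% of 13901 genes. At the lower threshold 3 were higher and 8 lower, against 13.7% and 11.6% of all genes, and the median log2 fold was -0.06, against -0.01 over all genes. With HEB, 0 of 90 were called in either direction at 2-fold, where 2.55% of 13695 genes were higher and 1.23% lower. At the lower threshold 1 was higher and 5 were lower, against 9.19% and 7.76% of all genes. The HEB median log2 fold was -0.04, against 0.01 over all genes. At both thresholds and in both directions, the share of nuclear members called was below the percentage over all genes, a difference that was not tested. With library totals or the authors' FPKM in place of TMM scaling, the E2-2 counts at the lower threshold were 5 higher and 8 lower. The E2-2 calls over all genes moved too. Of 13884 genes, 2771 were higher and 2666 lower with TMM, and 3041 and 2297 with totals. With FPKM 2989 were higher and 2297 lower, of 13832 genes.

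**Figure D1:**
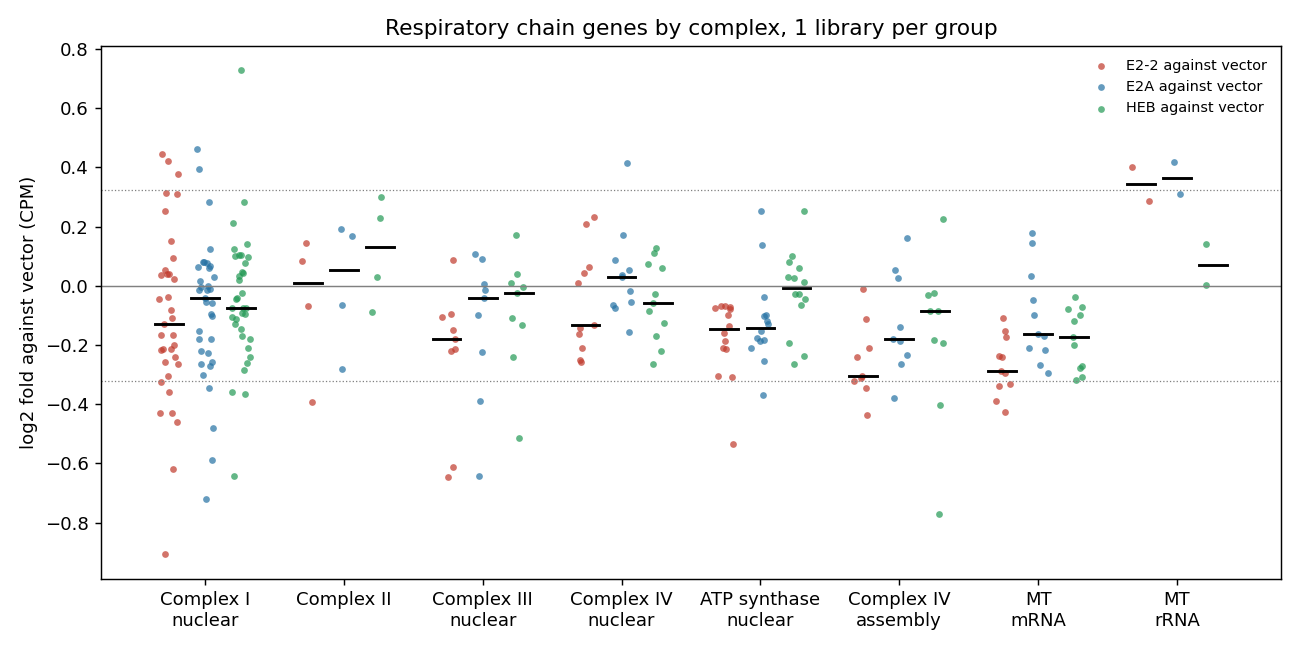
Log2 fold against vector (y axis) for measured respiratory chain genes by complex (x axis), 1 point per gene, with E2-2, E2A and HEB side by side, black bars for group medians and dotted lines at the lower threshold. Isoforms and genes outside the complexes are not drawn. Most nuclear points lie between the dotted lines, the mitochondrial mRNA medians are -0.29, -0.16 and -0.17 for E2-2, E2A and HEB, and both rRNAs lie above 0 for E2-2 and E2A.

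Complex I takes electrons from NADH. Of its 35 measured nuclear subunits, 2 were called higher (5.71%) and 6 lower (17.1%) at the lower threshold with E2-2, against 20.0% and 19.2% of all genes, with a median log2 fold of -0.13. The 7 core subunits carry the flavin and iron-sulfur clusters. NDUFV1, which binds NADH and the flavin, stood at 125 CPM in E2-2, 120 in E2A and 137 in HEB, against 133 in vector. NDUFS1, the largest iron-sulfur subunit, stood at 61.9 CPM in E2-2, 66.3 in E2A and 73.5 in HEB, against 77.5 in vector. Its log2 fold with E2-2 was -0.33, the lowest of the core subunits there and the only 1 of them called. NDUFS3 had log2 folds of -0.21 with E2-2, -0.01 with E2A and -0.07 with HEB, and NDUFS8 had -0.04, -0.10 and 0.02. NDUFS7 and NDUFV2 had 36 to 75 reads per library and wide intervals. NDUFV2 was called lower with HEB at 1.56-fold (1.00 to 2.46), on 36 reads in HEB against 53 in vector.

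Among the main nuclear subunits, the accessory subunits of complex I, a group of 28 measured genes, held the widest range of folds against vector. NDUFB10, a membrane arm subunit, stood at 59.7 CPM in E2-2, 44.7 in E2A and 48.4 in HEB, against 45.9 in vector. It was 1.30-fold (1.18 to 1.44) higher with E2-2, and E2-2 alone stood apart. NDUFB3, also in the membrane arm, stood at 29.2, 26.1 and 23.0 CPM in E2-2, E2A and HEB, against 21.5 in vector, and was 1.36-fold (1.18 to 1.57) higher with E2-2. NDUFB9, another membrane arm subunit, ran the other way, at 38.6 CPM in E2-2, 50.9 in E2A and 46.0 in HEB, against 59.2 in vector. It was 1.54-fold (1.38 to 1.71) lower with E2-2 and 1.29-fold (1.17 to 1.42) lower with HEB. NDUFB11 was 1.35-fold (1.24 to 1.47) lower with E2-2 and 1.27-fold (1.17 to 1.38) lower with E2A, with 62.4 CPM in E2-2, 66.1 in E2A and 78.7 in HEB against 84.0 in vector. These subunits belong to the same arm of the same complex, and their levels differed in opposite directions in the same library.

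NDUFA2 was the only subunit called higher in 2 libraries. It had 86 reads in E2-2, 103 in E2A and 116 in HEB, against 66 in vector. The folds were 1.34 (0.961 to 1.88) with E2-2, 1.38 (1.00 to 1.91) with E2A and 1.66 (1.21 to 2.28) with HEB, and all 3 rest on the same vector count. NDUFC2 had the lowest fold with E2-2, with 42 reads in E2-2, 61 in E2A and 67 in HEB against 81 in vector, 1.88-fold (1.28 to 2.79) lower with E2-2 and 1.5-fold (1.07 to 2.13) lower with E2A. NDUFA11 had the lowest fold with E2A, with 88 reads in E2-2, 84 in E2A and 117 in HEB against 122 in vector, 1.35-fold (1.02 to 1.79) lower with E2-2 and 1.65-fold (1.24 to 2.2) lower with E2A. The other calls in this complex were NDUFA10, 1.28-fold lower with E2-2, and NDUFB1, 1.32-fold higher with E2A.

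Complex II oxidises succinate and is also part of the citric acid cycle. Its catalytic flavoprotein SDHA stood at 149 CPM in E2-2, 150 in E2A and 160 in HEB, against 156 in vector. The iron-sulfur subunit SDHB stood at 77.2, 81.9 and 85.3 CPM in E2-2, E2A and HEB, against 72.8 in vector. Of the membrane anchors, SDHC was 1.31-fold (1.21 to 1.42) lower with E2-2, while SDHD had a fold of 1.11 (0.973 to 1.26) and was not called. With HEB the folds were 1.23 (1.09 to 1.39) for SDHD and 1.17 (1.08 to 1.27) for SDHB, both under the lower threshold. SDHB and SDHD were on the higher side in all 3 libraries and SDHC on the lower side in all 3.

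Complex III passes electrons to cytochrome c. Its nuclear redox subunits stayed near vector. CYC1, cytochrome c1, stood at 151 CPM in E2-2, 153 in E2A and 160 in HEB, against 142 in vector. UQCRFS1, the Rieske iron-sulfur protein, stood at 101 CPM in E2-2 and 107 in both E2A and HEB, against 108 in vector. The small subunit UQCRQ was the only subunit of any complex called lower in all 3 libraries. It stood at 7.52 CPM in E2-2, 7.36 in E2A and 8.04 in HEB, against 11.5 in vector, with no E protein library near vector. It was 1.53-fold (1.2 to 1.95), 1.56-fold (1.24 to 1.97) and 1.43-fold (1.13 to 1.80) lower with E2-2, E2A and HEB. UQCR11, another small subunit, was 1.56-fold (1.19 to 2.07) lower with E2-2 and 1.31-fold (1.02 to 1.69) lower with E2A, while HEB stood at 8.94 CPM and vector at 8.98.

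Complex IV reduces oxygen. Of its 11 measured main nuclear subunits 0 were called in either direction at the lower threshold in any of the 3 comparisons, where 20.0% and 19.2% of all genes were called higher and lower with E2-2, 13.7% and 11.6% with E2A and 9.19% and 7.76% with HEB. COX4I1, the usual form of subunit 4, stood at 175 CPM in E2-2, 182 in E2A and 195 in HEB, against 203 in vector. The highest folds were 1.17 (0.868 to 1.59) for COX6A1 with E2-2 and 1.33 (0.910 to 1.97) for COX8A with E2A, on 71 reads in E2A against 47 in vector, neither of them called.

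The assembly factors of complex IV were on the low side with E2-2, with a median log2 fold of -0.30. There 9 of 9 were below vector, against 53.1% of all genes. At the lower threshold 2 were called lower with E2-2 (22.2%, against 19.2% of all genes). COX11, which delivers copper to the enzyme, stood at 63.4 CPM in E2-2, 75.3 in E2A and 84.3 in HEB, against 85.8 in vector, and was 1.35-fold lower with E2-2. COX18, which helps insert subunit 2 into the membrane, was 1.27-fold (1.10 to 1.46) lower with E2-2 and 1.30-fold (1.13 to 1.49) lower with E2A. COX14 was 1.71-fold (1.04 to 2.84) lower with HEB on 28 reads in HEB against 45 in vector. COX10, which acts in making heme A, had a fold of 0.806 (0.634 to 1.02) with E2-2 and 1.17 (0.946 to 1.45) with HEB, neither of them called. COX20 had the lowest HEB fold of the complex IV genes with at least 100 reads in both libraries together, 0.756 (0.561 to 1.02), and was not called.

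Only NDUFA4L2 passed 2-fold. It is a relative of the complex IV subunit NDUFA4 that is known as a gene induced by hypoxia. Its counts were 16 in E2-2, 74 in E2A and 18 in HEB, against 15 in vector. The level was thus 1.06 CPM in E2-2, 4.19 in E2A and 1.09 in HEB, against 0.962 in vector. E2A was 4.36-fold (2.48 to 8.17) above vector, and the E2-2 and HEB counts lay close to the vector count. The direct comparisons gave the same order, with E2A 3.85-fold above HEB and E2-2 3.97-fold below E2A. NDUFA4 itself had log2 folds of 0.06, 0.04 and -0.03 with E2-2, E2A and HEB. The other tissue isoforms were near silent: COX6A2 and COX7B2 had 0 reads in all 4 libraries, COX4I2 had 1 read in HEB and 0 elsewhere, and COX8C, COX7A1 and COX6B2 had at most 8 reads in any library. A count of 0 allows up to 3 reads.

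**Figure D2:**
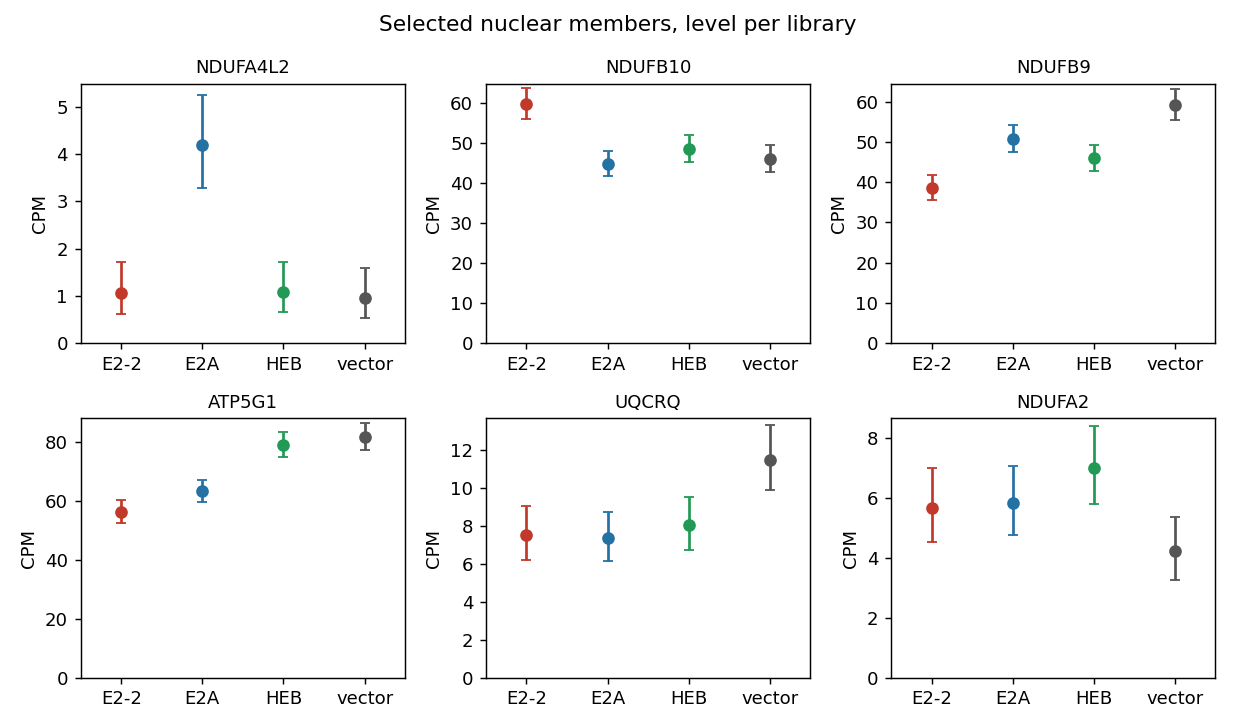
CPM (y axis, from 0) of 6 nuclear members in each library (x axis), with 95% exact Poisson intervals of the count. NDUFA4L2 stands at 4.19 CPM in E2A and about 1 in the other libraries, NDUFB10 is highest in E2-2, UQCRQ is lower in the 3 E protein libraries than in vector, and NDUFA2 is lowest in vector.

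ATP synthase was slightly below vector as a group with E2-2 (median log2 fold -0.15). There 14 of 14 measured subunits lay below vector, against 53.1% of all genes. At the lower threshold 1 was called lower with E2-2 (7.14%, against 19.2% of all genes). The highest fold there was 0.954 (0.832 to 1.09) for ATP5L, the g subunit, and with E2A it was 1.19 (0.962 to 1.48) for ATP5J2, the f subunit, neither of them called. The catalytic subunits were the most abundant nuclear members by read count. ATP5B, the beta subunit, stood at 863 CPM in E2-2, 881 in E2A and 1006 in HEB, against 964 in vector. ATP5A1, the alpha subunit, stood at 534, 545 and 631 CPM in E2-2, E2A and HEB, against 618 in vector. For both, E2-2 and E2A were below vector and HEB was above it, and the ATP5A1 folds were 0.864 (0.838 to 0.890) with E2-2, 0.882 (0.857 to 0.907) with E2A and 1.02 (0.992 to 1.05) with HEB. ATP5G1 is 1 of 3 genes for the proton-carrying ring subunit. It stood at 56.3 CPM in E2-2, 63.2 in E2A and 79.0 in HEB, against 81.6 in vector, 1.45-fold (1.33 to 1.58) lower with E2-2 and 1.29-fold (1.19 to 1.40) lower with E2A. The other ring genes had log2 folds of -0.30 (ATP5G2) and -0.31 (ATP5G3) with E2-2, and 0.14 and -0.18 with E2A. With HEB the group was centred on vector, 7 of 14 above and 7 below, where 47.5% of all genes were below. Its folds lay between 0.834 (0.756 to 0.919) for ATP5E and 1.19 (1.06 to 1.34) for ATP5H.

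Outside the complexes, ATP5S, named for ATP synthase but listed today as DMAC2L, was 1.36-fold (1.15 to 1.6) higher with E2-2. NDUFA6-AS1, named as an antisense RNA but listed today as NDUFA6-DT, was called lower in all 3 libraries. It had 79 reads in E2-2, 85 in E2A and 65 in HEB against 110 in vector. Other genes of the table overlap 15.8% of its span. Whether strand was used in counting is not stated, so its reads in that part and those of the overlapping genes cannot be told apart. In all, 21 of 90 nuclear members (23.3%) were called at the lower threshold in at least 1 library, against 47% of the 14287 genes measured in any of the 3 comparisons. Of the nuclear members 0 were called higher in one library and lower in another, against 0.651% of all genes.

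Some members lie inside other genes. Of the 75 main subunit genes, 15 have at least 90% of their span inside other genes of the table, with a median of 390 reads over the 4 libraries. The other 60 had a median of 3807 reads, and 10 of the 15 but 3 of the 60 had under 500. The overlapped genes include NDUFC2, NDUFA11, NDUFV2, UQCR11, COX8A, SDHD and ATP5G1, named above. Of the 21 called nuclear members 6 were overlapped to that extent. Of all 103 nuclear members 24 were, among them genes that were not measured and could not be called, such as NDUFA7 and COX8C. The part of the overlap in the folds of the called members was not tested. Without the overlapped members the lower calls at the lower threshold were 9 with E2-2, 4 with E2A and 3 with HEB. With them they were 13, 8 and 5. Over all genes, overlapped ones included, 19.2%, 11.6% and 7.76% were lower.

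The mitochondrial mRNAs were below vector more evenly than the nuclear genes. Together the 11 mRNAs took 4.44% of counted reads in E2-2 (exact interval 4.43 to 4.45), 4.64% in E2A (4.63 to 4.65) and 4.69% in HEB (4.68 to 4.70), against 5.16% in vector (5.15 to 5.17). The fold of their summed level was 0.834 (0.831 to 0.837) with E2-2, 0.892 (0.889 to 0.895) with E2A and 0.915 (0.912 to 0.918) with HEB. With E2-2 and with HEB 11 of 11 lay below vector, against 53.1% and 47.5% of all genes. With E2A 8 of 11 did, against 51.2% of all genes. At the lower threshold 4 were called lower with E2-2, MT-ND2, MT-ND4, MT-ND4L and MT-CO3 (36.4% of 11, against 19.2% of all genes), and 0 with E2A or HEB, against 11.6% and 7.76% of all genes. At 2-fold 0 were called in any library.

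Scaling between libraries does not enter a ratio taken within a library. Per read of the nuclear members there were 7.25 (7.20 to 7.30) reads of mitochondrial mRNA in E2-2, 7.43 (7.39 to 7.48) in E2A and 7.18 (7.13 to 7.22) in HEB, against 7.80 (7.75 to 7.85) in vector. The vector library thus held the most mitochondrial mRNA per nuclear respiratory read. The nuclear members took 0.613% of counted reads in E2-2, 0.624% in E2A and 0.654% in HEB, against 0.662% in vector.

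**Figure D3:**
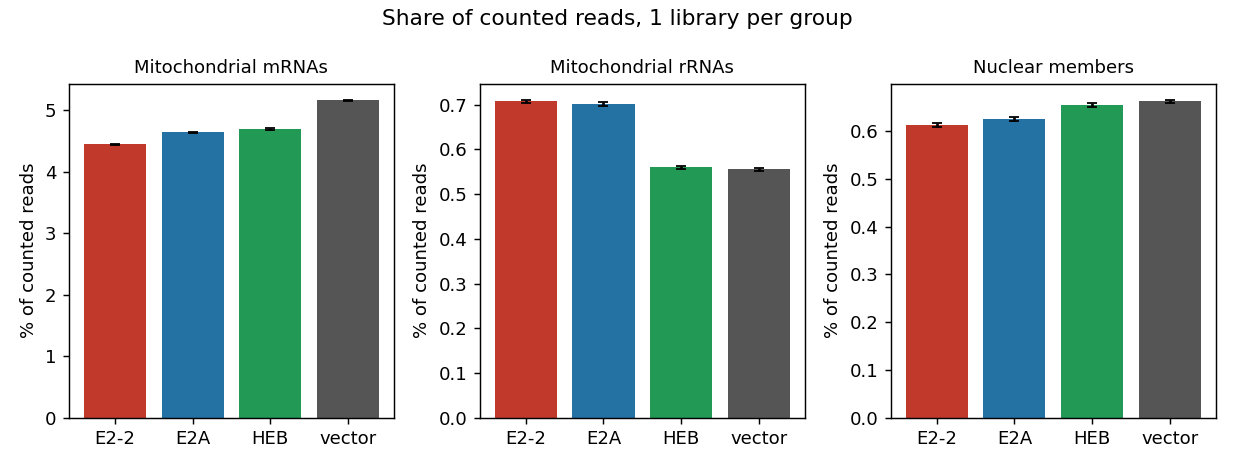
Share of counted reads in percent (y axes, from 0, a separate scale per panel) taken by mitochondrial mRNAs, mitochondrial rRNAs and nuclear members in each library, with 95% exact binomial intervals. The mRNA share is highest in vector at 5.16%, while the rRNA share is 0.707% in E2-2 and 0.702% in E2A against 0.556% in vector.

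Complex I mRNAs made in mitochondria differed among themselves. MT-ND2 had the lowest fold with E2-2 and E2A, at 3158 CPM in E2-2, 3454 in E2A and 3959 in HEB, against 4239 in vector, 1.34-fold (1.33 to 1.36) lower with E2-2. MT-ND4 stood at 6386 CPM in E2-2, 6712 in E2A and 7864 in HEB, against 8080 in vector, 1.27-fold lower with E2-2. MT-ND1 stood at 2650, 2890 and 3066 CPM in E2-2, E2A and HEB, against 3238 in vector. For these 3 genes the level was lowest in E2-2, then E2A, then HEB, and highest in vector. MT-ND5, the longest, had log2 folds of -0.11, -0.05 and -0.07 for E2-2, E2A and HEB.

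The short complex I mRNAs followed another order. MT-ND3 stood at 293 CPM in E2-2, 383 in E2A and 278 in HEB, against 347 in vector. MT-ND4L stood at 197 CPM in E2-2, 292 in E2A and 209 in HEB, against 258 in vector. MT-ND6, the one on the opposite strand, stood at 419 CPM in E2-2, 476 in E2A and 386 in HEB, against 465 in vector. E2A was highest for all 3, and these were the only mitochondrial mRNAs above vector in any library. They are also the 3 shortest of the 11, at 297 bases for MT-ND4L, 346 for MT-ND3 and 525 for MT-ND6. As the strand setting is not given, the MT-ND6 counts may hold reads from the other strand. MT-ND4L and MT-ND4 lie on the same precursor and overlap. Per MT-ND4 read there were 0.0309 MT-ND4L reads in E2-2, 0.0435 in E2A and 0.0265 in HEB, against 0.0320 in vector. Reads in the overlap can be lost, and this ratio of counts is not a measure of separate RNAs. The part of the overlap in it was not tested.

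For complex III, MT-CYB, cytochrome b, stood at 2086 CPM in E2-2, 2114 in E2A and 2028 in HEB, against 2458 in vector, with folds of 0.849, 0.860 and 0.825 for E2-2, E2A and HEB. For complex IV, MT-CO1, the catalytic subunit with heme and copper, stood at 13668 CPM in E2-2, 14360 in E2A and 14163 in HEB, against 15389 in vector. MT-CO2 stood at 4682, 4959 and 5091 CPM in E2-2, E2A and HEB, against 5741 in vector. MT-CO3 stood at 6654, 7448 and 7288 CPM in E2-2, E2A and HEB, against 8373 in vector, and was 1.26-fold lower with E2-2. Every one of these 4 mRNAs was below vector in all 3 libraries.

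**Figure D4:**
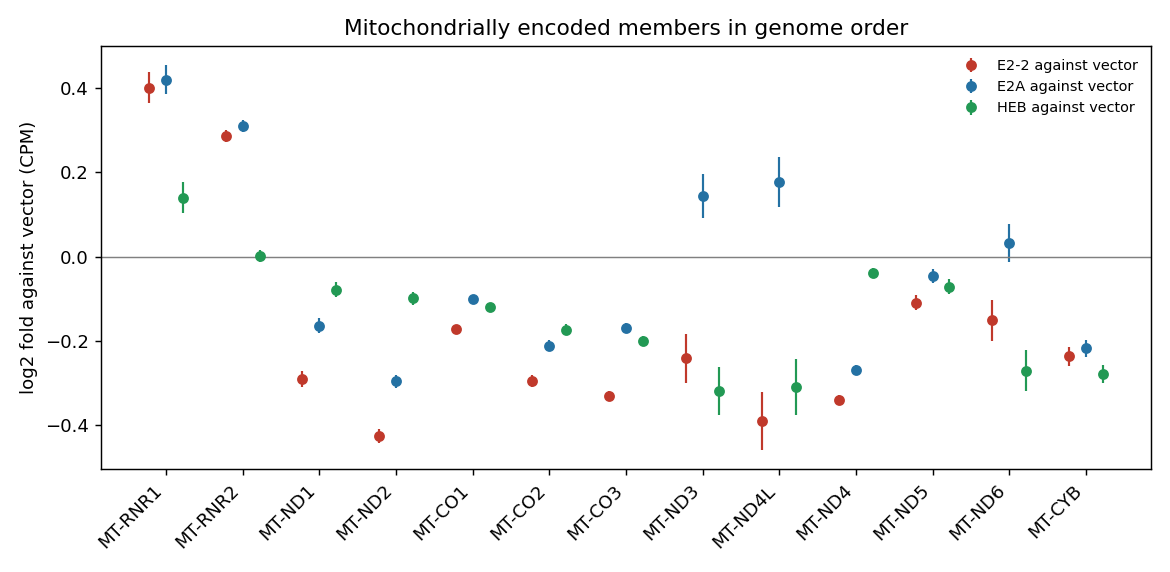
Log2 fold against vector (y axis) of the 13 mitochondrially encoded members in genome order (x axis) for E2-2, E2A and HEB, with 95% exact intervals for counting error, mostly hidden by the symbols. The 2 rRNAs are above 0 for E2-2 and E2A, the E2A points of MT-ND3 and MT-ND4L are at 0.14 and 0.18, and the lowest point is MT-ND2 in E2-2 at -0.42.

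Counts of different mitochondrial genes can be set per length, since these genes have no introns and their span is their length. In reads per kilobase per 1000000 scaled reads, MT-CO3 and MT-CO1 led the mRNAs, at 8487 and 8864 in E2-2 and 10680 and 9980 in vector. The lowest mRNAs were MT-ND4L at 664 in E2-2 and 870 in vector and MT-ND6 at 798 in E2-2 and 886 in vector. The other mRNAs lay between these in both libraries. MT-ND4L and MT-ND6 are among the shortest mRNAs, at 297 and 525 bases. The part of length, lost shared reads and strand in these values was not tested.

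The ribosomal RNAs went against the mRNAs. MT-RNR1, the 12S rRNA, stood at 941 CPM in E2-2, 953 in E2A and 785 in HEB, against 712 in vector. It was 1.32-fold (1.29 to 1.35) higher with E2-2 and 1.34-fold (1.31 to 1.37) higher with E2A, and called in both, with a log2 fold of 0.14 and no call with HEB. MT-RNR2, the 16S rRNA, stood at 5970 CPM in E2-2, 6065 in E2A and 4898 in HEB, against 4893 in vector. Per read of mitochondrial mRNA there were 0.159 rRNA reads in E2-2, 0.151 in E2A and 0.119 in HEB, against 0.108 in vector. E2-2 and E2A stood above HEB and vector for both rRNAs.

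Mitochondrial rRNAs carry only short A tails, and whether poly(A) RNA was selected is not stated beyond the kit name. RN7SK, a nuclear RNA without a poly(A) tail, had 33 reads in E2-2, 180 in E2A and 44 in HEB, against 28 in vector. The 87 genes named HIST, many of whose RNAs lack a tail, summed to 0.00378% of reads in E2-2, 0.00332% in E2A and 0.00361% in HEB, against 0.00410% in vector. RN7SK was thus high in E2A alone and the histone share was highest in vector. Their part in the rRNA result was not tested.

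The E protein libraries were also set against each other, without vector. At 2-fold, NDUFA4L2 was the only member called: 0 of 90 nuclear members were higher and 1 lower in E2-2 than in E2A (3.63% and 1.61% of all genes), 0 in E2-2 against HEB (6.09% and 1.57%), and 1 higher and 0 lower in E2A than in HEB (2.38% and 0.696%). Between E2-2 and E2A, 1 of 90 nuclear members was higher at the lower threshold in E2-2 and 5 were lower, against 12.1% and 10.5% of all genes. Between E2-2 and HEB, 4 were higher and 7 lower in E2-2, against 16.9% and 15.6%. Between E2A and HEB, 3 were higher and 4 lower in E2A, against 9.36% and 7.49%. NDUFB10 was 1.34-fold higher in E2-2 than in E2A, NDUFB9 was 1.32-fold lower, and ATP5G2 was 1.36-fold lower. COX10 was lower in E2-2 than in E2A (1.26-fold) and than in HEB (1.45-fold). UQCR10 and the copper chaperone gene COX17 were higher in E2A than in HEB, at 1.26-fold and 1.28-fold. MT-ND3 and MT-ND4L were 1.38-fold and 1.40-fold higher in E2A than in HEB and were the only mitochondrial members called there (18.2% of 11 mRNAs, against 9.36% of all genes). The same 2 were lower in E2-2 than in E2A, with log2 folds of -0.38 and -0.57 (18.2%, against 10.5% of all genes). Between E2-2 and HEB, 1 mitochondrial mRNA was lower in E2-2, MT-ND2 at -0.33 (9.09%, against 15.6% of all genes).

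The genes that build and serve the chain were described from lists chosen with earlier results of these data known. The counts of each list are to be read against all genes, of which 20.0% were higher and 19.2% lower at the lower threshold with E2-2, 13.7% and 11.6% with E2A, and 9.19% and 7.76% with HEB. Of 41 measured assembly factors outside the name rule, 0 were higher and 13 lower (31.7%) with E2-2 (median log2 fold -0.24), 1 higher and 6 lower with E2A (-0.07), and 2 higher and 1 lower with HEB (0.00). TTC19, a complex III assembly factor, was called lower in all 3 libraries, at 30.7 CPM in E2-2, 34.4 in E2A and 40.8 in HEB, against 51.7 in vector. COA7, FOXRED1 and C17orf89 were 1.48-fold, 1.38-fold and 1.48-fold lower with E2-2.

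Of 32 genes for copying, transcribing and processing mitochondrial RNA, 3 were higher and 12 lower (37.5%) with E2-2 (median log2 fold -0.22), 2 higher and 3 lower with E2A (-0.10), and 0 higher and 2 lower with HEB (0.03). POLRMT, the mitochondrial RNA polymerase, stood at 40.9 CPM in E2-2, 51.1 in E2A and 62.8 in HEB, against 61.7 in vector, and was 1.51-fold (1.36 to 1.67) lower with E2-2. LRPPRC, which stabilises mitochondrial mRNAs, stood at 351 CPM in E2-2, 423 in E2A and 485 in HEB, against 481 in vector. ELAC2 and TRMT10C, which cut mitochondrial tRNAs out of the precursors, were 1.43-fold and 1.46-fold lower with E2-2. Of 75 measured mitochondrial ribosomal protein genes, 0 were higher and 19 lower (25.3%) with E2-2 (median log2 fold -0.21), 1 higher and 3 lower with E2A, and 0 higher and 2 lower with HEB.

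Of 26 carriers and chain proteins outside the name rule, 1 was higher and 8 lower (30.8%) with E2-2 (median log2 fold -0.27), 0 higher and 3 lower with E2A (-0.06) and 1 higher and 1 lower with HEB (0.00). COQ4, needed to make coenzyme Q, was 1.73-fold lower with E2-2 and 1.36-fold lower with E2A. Of 19 citric acid cycle genes, 1 was higher and 4 lower (21.1%) with E2-2 (median log2 fold -0.14). With E2A 1 was higher and 1 lower (-0.06), and with HEB 1 was higher and 0 lower (0.09). With HEB 4 of the 19 lay below vector, against 47.5% of all genes. Of 21 glycolysis genes, 2 were higher and 10 lower (47.6%) with E2-2 (-0.34), 0 higher and 3 lower with E2A (-0.16), and 0 higher and 1 lower with HEB (0.02). The lower ones with E2-2 include the glucose transporter gene SLC2A3, at 89.4 CPM in E2-2, 107 in E2A and 163 in HEB, against 197 in vector. Of 12 measured regulators, 5 were higher and 2 lower with E2-2 (median log2 fold 0.13), 2 higher and 1 lower with E2A (0.21), and 2 higher and 0 lower with HEB (0.12). MYC was 2.33-fold (2.21 to 2.45) lower with E2-2 and 1.32-fold (1.26 to 1.37) lower with E2A. TFEB, on low counts, was 3.77-fold (2.1 to 7.19) higher with E2-2 and 3.24-fold (1.80 to 6.17) higher with E2A. GABPB2, a GABP subunit, was 1.72-fold (1.43 to 2.07) higher with E2-2 and 1.67-fold (1.39 to 2.01) higher with E2A. The 2 higher with HEB were PPARGC1B and ESRRA.

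**Figure D5:**
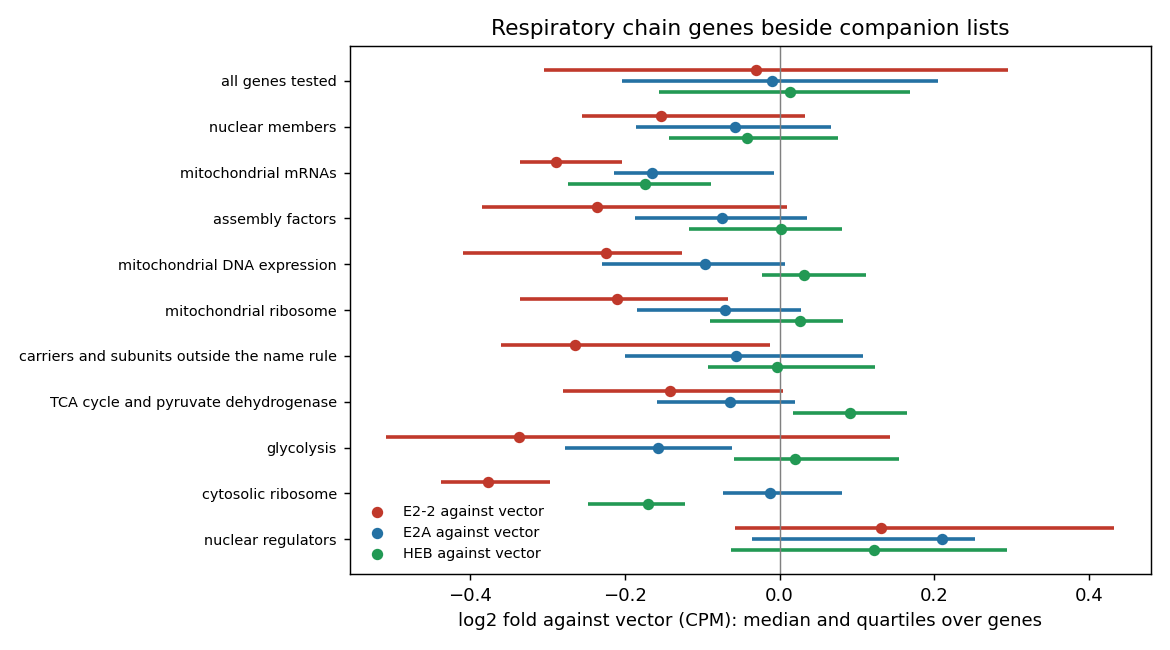
Median (point) and quartiles (line) of the log2 fold against vector over the measured genes of each list (rows) for E2-2, E2A and HEB. The E2-2 medians of the mitochondrial lists lie between -0.29 and -0.14, beside -0.03 over all genes and -0.38 for cytosolic ribosomal proteins.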

How the data were processed

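Per the file headers, the deposited table gives a raw read count and an FPKM value, both made by the authors, for each Ensembl gene in each RNA library. Per the labels' protocols, RNA came from sorted GFP-positive cells and a TruSeq RNA kit was used. The tools TopHat2 2.0.9 and HTSeq 0.9.1 and the builds hg19 and hg38 come from the submitters' processing notes, which give no role or order. Annotation and strand setting: not given in the sources used here. Reads shared by overlapping genes, or by genes with close copies, can be lost in such counts.

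The 4 libraries were scaled with the TMM method of edgeR 4.0.16 (R 4.3.3). The CPM values use the scaled library sizes. Folds have 95% exact conditional binomial intervals, computed in Python 3.11.15 with scipy 1.17.1. These intervals, and the floor of 3 reads for a count of 0, cover counting error only. Since every group is a single library, no p-value is given. DESeq2 1.42.0 size factors, library totals, other filters on low counts and the authors' FPKM served as alternatives. The call rules were tested on simulated data. The 13 mitochondrial lengths implied by the FPKM equal the gene spans, but 12 of 86 nuclear ones in the vector library exceed the span, so nuclear genes are not compared per length.

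The name rule that picks the members uses no measured value, but it and the lists were chosen with earlier results of these data known. Named are all mitochondrial members, the core subunits (1 of them is not reported here), the tissue isoforms, 2-fold calls, the highest and lowest member of each complex with at least 100 reads, and up to 4 genes of each companion list. Other members called at the lower threshold, ATP5G2, ATP5G3, NDUFA4, COX17 and UQCR10 were named after their values were seen, and so were the choice of RN7SK and histone genes and the 90% overlap.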

Additional observations from a re-analysis of the deposited data

How the results depend on the processing

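No paired analysis was possible because each group has 1 library. Leaving out a replicate was not possible for the same reason. Under the alternatives run, the median log2 folds of the nuclear members and the summed mitochondrial values kept their direction. The median of all genes stayed within 0.1 of its value but changed sign near 0. With E2-2 it was -0.03, against 0.015 with library totals and 0.013 with FPKM. With E2A it was -0.0091, against 0.0014 with DESeq2 size factors, 0.0026 with totals, 0.0045 with no filter and 0.0018 with FPKM. With E2-2, the nuclear median log2 fold was -0.13 with DESeq2 size factors, -0.11 with library totals and with the authors' FPKM, and -0.14 for main subunits alone. The counts at the lower threshold became 5 higher and 8 lower with library totals and with FPKM. Over all genes 3041 were then higher and 2297 lower of 13884 with totals, and 2989 and 2297 of 13832 with FPKM. The summed mitochondrial mRNA log2 fold with E2-2 was -0.24 with DESeq2 size factors, -0.22 with totals and -0.23 with FPKM, and that of the rRNAs 0.32, 0.35 and 0.36. With E2A the mRNA value was -0.15 in all 3, and the rRNA value 0.34 with FPKM. With HEB the mRNA value was -0.12, -0.14 and -0.15. The HEB median for main subunits alone was -0.029. Lower calls were 3 for HEB with at least 100 reads, where 869 of 11217 genes were lower. Without overlapped members, an alternative chosen after seeing the data, they were 4 for E2A and 3 for HEB. With overlapped members they were 8 and 5. Over all genes, overlapped ones included, 11.6% and 7.76% were lower. Without MT-CO1 the log2 ratio of mitochondrial mRNA to nuclear reads against vector was -0.15 with E2-2 and -0.098 with E2A, beside -0.11 and -0.07 with it. For the main results, 81 alternative values counted as the same and 27 as moved. For single members, 1790 alternative values stayed within their counting interval and 41 moved outside it, none with a change of sign. The largest shift of a single member was 0.046 on the log2 scale. These shifts come from the construction of each scaling, filter or list. Depth limits NDUFS7, NDUFV2, COX8A, COX14 and the tissue isoforms most.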

Other observations

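Nuclear copies of mitochondrial genes can share reads with the mitochondrial genes. The pseudogene MTCO1P12 had 3717 reads in E2-2, 4766 in E2A and 4482 in HEB, against 4790 in vector, beside 207272, 253730, 234360 and 240043 for MT-CO1. MTND2P28 had 4327 reads in E2-2, 6379 in E2A and 5352 in HEB, against 5892 in vector. All 285 such copies took 0.0674% of counted reads in E2-2, 0.0800% in E2A and 0.0730% in HEB, against 0.0864% in vector. The part of shared reads in the levels of the mitochondrial genes was not tested.

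Among the ribosomal protein genes of the cytosol named by their folds, some were highest in E2A. RPS27 stood at 203 CPM in E2-2, 277 in E2A and 164 in HEB, against 213 in vector. RPL37A stood at 146 CPM in E2-2, 209 in E2A and 141 in HEB, against 158 in vector. RPL39 was 1.33-fold lower with HEB. Of 82 measured cytosolic ribosomal protein genes, 2 were higher and 52 lower (63.4%) at the lower threshold with E2-2, where 20.0% and 19.2% of all genes were. With E2A 4 were higher (4.88%) and 0 lower, against 13.7% and 11.6% of all genes. With HEB 0 were higher and 7 lower (8.54%), against 9.19% and 7.76% of all genes.

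Of the 21 nuclear members called at the lower threshold in any library, 15 have a promoter window. Either E-box was in 4 of these 15 windows (26.7%), in 21 of 65 windows of the rest (32.3%) and in 34.3% of all windows, a difference that was not tested.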
